A study of Mus musculus with 70 samples.

Results

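Genes for the proteasome were followed in the hippocampus of 69 mice, across genotype, feeding and time of sacrifice. The members were all listed genes whose symbol is Psma, Psmb, Psmc, Psmd, Psme, Psmf or Psmg followed by a digit, with pseudogenes left out. The rule found 48 of 14260 genes. Of these, 46 encode subunits, assembly chaperones, activators or the inhibitor of the proteasome. The other two, Psmc3ip and Psme3ip1, are named after proteins that bind a subunit or an activator and are not subunits themselves. Psma8, Psmb11 and Psme2b were not analysed here.

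The proteasome is the protease that breaks down most proteins marked with ubiquitin. Its barrel-shaped 20S core has outer rings of alpha subunits, which gate the entrance, and inner rings of beta subunits, of which Psmb5, Psmb6 and Psmb7 carry the cutting sites. The 19S particle caps the core: its base holds the ATPases that unfold the substrate, and its lid removes ubiquitin. In neurons the proteasome takes part in synaptic plasticity and in the removal of misfolded proteins. The transcription factors NRF1 (gene Nfe2l1) and NRF2 raise proteasome genes together through antioxidant response elements in their promoters.

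The mice were APP23 transgenics (TG; B6.Cg-Tg(Thy1-APP)3Somm/J), in which the neuronal Thy1 promoter drives human APP, and non-transgenic littermates (NTG, titled WT). Restricted feeding (TRF) gave food for 6 h a day, from zeitgeber time (ZT) 15 to ZT21, and the comparison groups ate ad libitum (ALF). ZT0 is lights on and ZT12 lights off in a 12 h light and 12 h dark cycle that all groups shared. The groups were TG on TRF (18 animals; 6, 4, 5 and 3 across the times ZT0, ZT6, ZT12, ZT18), TG on ALF (19; 6, 4, 6 and 3), NTG on TRF (16; 6, 2, 6 and 2) and NTG on ALF (16; 7, 1, 6 and 2). By the labels, mice were between 6 and 9 months old when TRF began, and between 10 and 13 months old at sacrifice. All animals at ZT6 and ZT18 carry numbers of the 300 series, against 2 of 25 at ZT0 and 1 of 23 at ZT12, so a difference between these times and ZT0 or ZT12 cannot be told apart from one between number series. The contrasts of ZT12 with ZT0 and of ZT18 with ZT6 lie mostly or wholly within series.

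The values are the authors' normalized counts. Depth was between 27.9 M and 47.1 M reads per library, counted over the listed genes. The Thy1 gene, whose promoter drives the transgene, ran from 101986 to 171318 normalized counts in TG animals, against 14727 to 29068 in NTG animals, and every animal fell on the side of its label. Markers of hippocampal neurons were all 10 listed, led by Slc17a7 with a mean of 41564. The tissue also held choroid plexus in varying amounts, with the thyroxine carrier Ttr running from 27.6 to 215418. The 5 libraries of lowest mean correlation with the others (0.939 to 0.967) are called here the libraries that stood apart. By their titles they are WT_ALF_0_107 and WT_ALF_0_1 of NTG on ALF and TG_ALF_0_16 and TG_ALF_0_5 of TG on ALF, all at ZT0, and TG_TRF_12_104 of TG on TRF at ZT12. The number 5 was a choice, and the next library, TG_TRF_6_307, lay at 0.970 and was kept. Results are given with and without the 5 libraries. In whole tissue, fewer cells of a type and less RNA per cell cannot be told apart.

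Proteasome genes were well expressed. The median of the members' mean levels was 2364 normalized counts, against 934 over all listed genes. Per kilobase of exon, the highest mean levels were those of the ATPases Psmc5 (3639) and Psmc1 (2700) and of the chymotrypsin-like subunit Psmb5 (2234). The lowest were those of the immune subunits Psmb9 (16.95) and Psmb8 (40.4), which replace Psmb6 and Psmb5 in the immunoproteasome of immune cells and interferon-treated cells, and of Psmc3ip (47.7), a factor of meiotic recombination. The third immune subunit, Psmb10, reached 539 per kilobase, above both of its partners in the immunoproteasome. Exons of 15 members overlap those of another annotated gene. With the strand setting of the counting not given, the effect of the overlap on their values, in either direction, is not known. The overlap covers more than 20% of the exon bases only in Psmc3ip (21.2%, with Mlx) and Psmd9 (25.5%, with Gm26745).

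The question of whether proteasome genes follow the time of day was addressed first between ZT12 and ZT0, the 2 best filled times. Proteasome genes were higher at lights off. Of 48 members, 30 rose at ZT12 against ZT0 and 0 fell in limma's test (adjusted p under 0.05 over all 14260 genes), where 27.9% of all genes were called, 14.4% higher and 13.6% lower. The estimate was above 0 in 47 of 48 members, and its median was 0.17 on the log2 scale, against 0.00 over all genes. The changes were small: the 30 that rose did so by 0.07 to 0.47 on the log2 scale, or 1.052-fold to 1.38-fold. With the 5 libraries that stood apart left out, 14 members rose and 0 fell, where 17.2% of all genes were called, 8.25% higher and 8.98% lower. The median of the members was then 0.10, and 40 of 48 were above 0. Both counts were above the share of all genes called higher. Of the 14, 12 were among the 30: Psma5, Psma7, Psmb2, Psmb3, Psmb10, Psmc2, Psmc3ip, Psmd4, Psmd13, Psmd14, Psme4 and Psmf1. Psmc3 and Psmd1 were called only without the 5 libraries, and that difference was not tested.

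**Figure D1:**
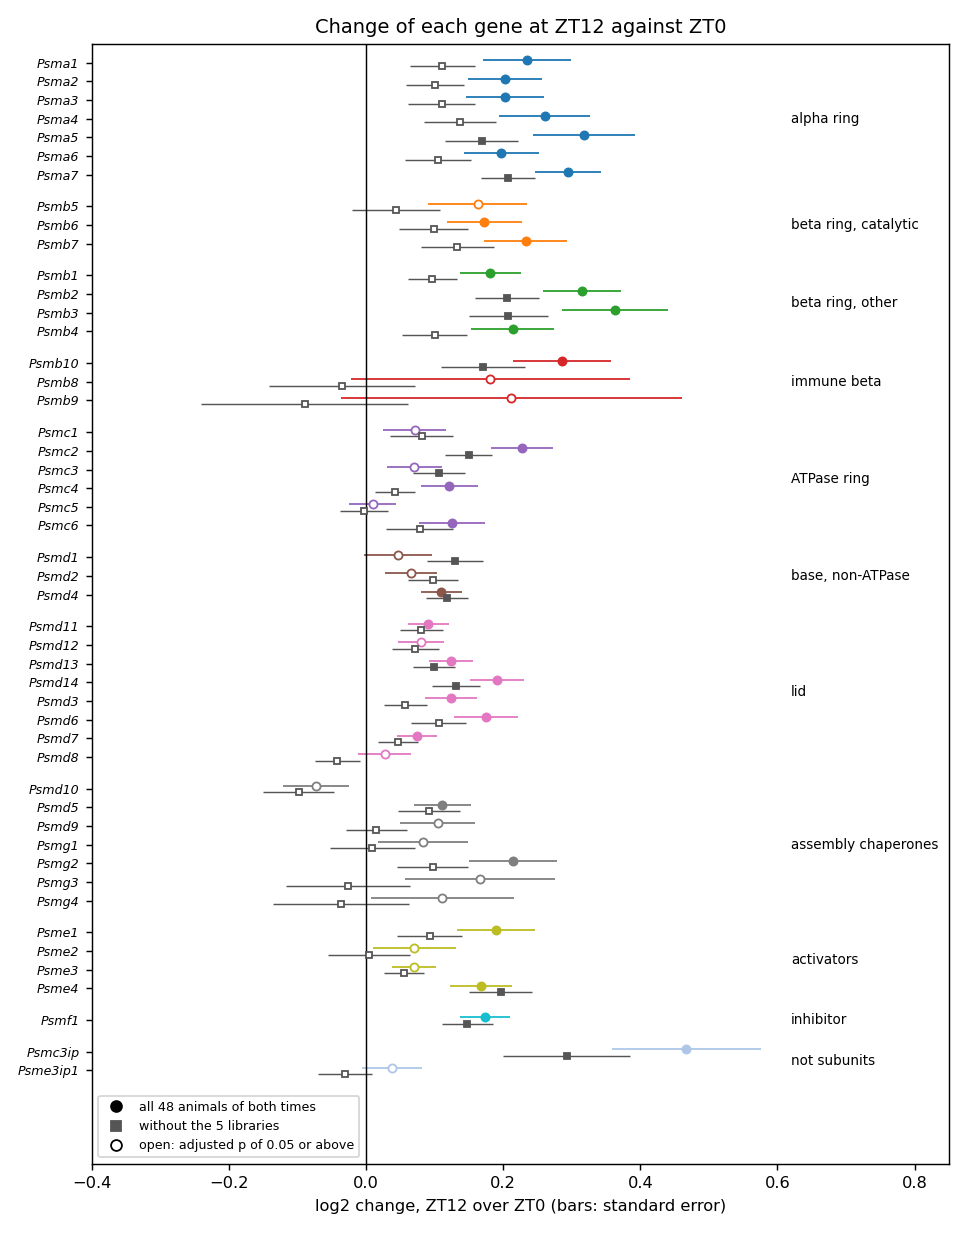
Change of each of the 48 genes at ZT12 over ZT0 (log2, horizontal axis), by role. Circles use all animals and grey squares leave out the 5 libraries that stood apart, bars are standard errors from limma, and filled symbols passed an adjusted p of 0.05. Circles of the 20S rings lie between 0.16 and 0.36, and 47 of 48 circles lie to the right of 0, against 40 of 48 squares.

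The alpha ring rose as a whole with all animals, but only in part without the 5 libraries. All 7 listed alpha subunits rose at ZT12 against ZT0, where 14.4% of all genes were called higher. Their median was 0.23 on the log2 scale. Psma7 (GRCm38 chr2:180036374-180042433, minus strand), a subunit of the outer ring, had the smallest p of the members. It ran from 2469 to 3503 normalized counts at ZT12 (median 2889, n = 23), against 1642 to 2948 at ZT0 (median 2420, n = 25). All 23 animals at ZT12 lay above the ZT0 median, and the ranges overlapped. The change was 0.29 ± 0.05 on the log2 scale (SE, adjusted p = 3.27e-06), and 0.21 ± 0.04 without the 5 libraries (adjusted p = 8.18e-05). Psma5 ran from 1340 to 1976 at ZT12 (median 1730) and from 747 to 1762 at ZT0 (median 1445), a change of 0.32 ± 0.07 (adjusted p = 8.51e-04). When the 5 libraries were left out, Psma7 and Psma5 were the 2 of 7 alpha subunits called. The median of the ring was then 0.11, and 8.25% of all genes were called higher.

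All 4 beta subunits without a cutting site rose as well, where 14.4% of all genes were called higher. Their median was 0.26 on the log2 scale. Psmb2 (chr4:126677630-126709714, plus strand) ran from 1815 to 2547 normalized counts at ZT12 (median 2033), against 1079 to 2391 at ZT0 (median 1734), and changed by 0.31 ± 0.06 (adjusted p = 2.32e-05). Psmb3 ran from 1692 to 2865 at ZT12 (median 2110), against 828.5 to 2364 at ZT0 (median 1758), and changed by 0.36 ± 0.08 (adjusted p = 2.50e-04). Psmb1 changed by 0.18 ± 0.04 (adjusted p = 0.00147), from ranges of 3614 to 5133 at ZT12 and 2583 to 4695 at ZT0. In all 3 genes the ranges overlapped, and the lowest ZT0 value came from one of the 5 libraries. Without these libraries the lowest ZT0 values were 1452 for Psmb2, 1432 for Psmb3 and 3474 for Psmb1. Psmb2 and Psmb3 were also called without the 5 libraries, each at 0.21. Psmb1 was then at 0.10 ± 0.04 (adjusted p = 0.0517).

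Of the cutting subunits, Psmb7 (trypsin-like) and Psmb6 (caspase-like) rose, by 0.23 ± 0.06 and 0.17 ± 0.05. Psmb5 (chymotrypsin-like) was estimated at 0.16 ± 0.07 (adjusted p = 0.0835). None of the 3 was called without the 5 libraries. Of all genes, 14.4% were called higher with all animals and 8.25% without the 5 libraries. Of the immune subunits, Psmb10 rose by 0.29 ± 0.07 (adjusted p = 0.00172). It ran from 774 to 1436 normalized counts at ZT12 (median 1027), against 465 to 1010 at ZT0 (median 834), so that the ZT12 median lay above every ZT0 animal. Psmb8 ran from 97.2 to 197 at ZT12 (median 133), against 2.49 to 188 at ZT0 (median 135.5), and was not called (adjusted p = 0.528). Psmb9 ran from 25.8 to 91.3 at ZT12 (median 58.5), against 0 to 111 at ZT0 (median 61.4; adjusted p = 0.546). The value of 2.49 came from WT_ALF_0_107, in which Psmb9 was listed at 0. Psmb8 and Psmb9 are low, and their estimates of 0.18 and 0.21 were -0.04 and -0.09 without the 5 libraries.

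In the 19S particle the estimates were smaller on median. Of its 17 genes, 10 rose, against 13 of 14 in the 20S core, where 14.4% of all genes were called higher. The medians were 0.09 on the log2 scale over the 17 and 0.22 in the core. Without the 5 libraries the counts were 6 of 17 and 4 of 14, where 8.25% of all genes were called higher. The medians were then 0.08 and 0.11. The difference between core and 19S particle was not tested. In the lid, 6 of 8 rose, led by Psmd14, a deubiquitinase of the proteasome. Psmd14 (chr2:61711694-61800376, plus strand) ran from 2474 to 3141 normalized counts at ZT12 (median 2759), against 1754 to 2727 at ZT0 (median 2464), and all 25 ZT0 animals lay below the ZT12 median. It changed by 0.19 ± 0.04 (adjusted p = 1.73e-04), and by 0.13 ± 0.04 without the 5 libraries (adjusted p = 0.00545). In the ATPase ring 3 of 6 rose. Psmc2 ran from 2432 to 3177 at ZT12 (median 2709), against 1415 to 3070 at ZT0 (median 2390), and changed by 0.23 ± 0.05 (adjusted p = 1.10e-04). Psmc5, the most highly expressed member per kilobase, ran from 4251 to 6438 at ZT12 (median 5157) and from 4415 to 5997 at ZT0 (median 5085), with an estimate of 0.01 ± 0.03. Of the base subunits outside the ATPase ring, the ubiquitin receptor Psmd4 rose by 0.11 ± 0.03 (adjusted p = 0.00435), and the scaffolds Psmd1 and Psmd2 were not called (adjusted p = 0.504 and 0.193).

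Regulators of the core were mixed. Psmf1 (chr2:151715812-151744186, minus strand), which encodes the inhibitor PI31, rose by 0.17 ± 0.04 (adjusted p = 1.73e-04), with 1145 to 1586 normalized counts at ZT12 (median 1344), against 1019 to 1631 at ZT0 (median 1174.5). Its change without the 5 libraries was 0.15 ± 0.04 (adjusted p = 0.00275). Psme4, the nuclear activator PA200, rose by 0.17 ± 0.04 (adjusted p = 0.00353), with 1616 to 2423 at ZT12 (median 2212), against 1602 to 2218 at ZT0 (median 1903). Its change was 0.20 ± 0.05 without the 5 libraries. The PA28 activator of the immunoproteasome is built from Psme1 and Psme2. Psme1 rose by 0.19 ± 0.06 (adjusted p = 0.00899), with 919 to 1457 at ZT12 (median 1161), against 575 to 1286 at ZT0 (median 1028), but was not called without the 5 libraries (0.09 ± 0.05, adjusted p = 0.183). Psme2 had medians of 533 at ZT12 and 517 at ZT0 (adjusted p = 0.399). Psme3, the nuclear PA28 subunit, had medians of 3471 at ZT12 and 3263 at ZT0 (adjusted p = 0.0980). Of the 7 assembly chaperones, Psmd5 and Psmg2 rose, where 14.4% of all genes were called higher. Neither was called without the 5 libraries, where 8.25% of all genes were called higher. Psmd10 (gankyrin) was the one member with an estimate below 0 (-0.07 ± 0.05, adjusted p = 0.258). Psmc3ip, which is not a subunit, had the largest change of the 48 members, at 0.47 ± 0.11 (adjusted p = 7.90e-04), on low levels of 72.03 to 136.3 at ZT12 and 29.3 to 116.5 at ZT0.

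Promoters were set beside these changes because an antioxidant response element is the known common control of the family. RefSeq promoter sequences on GRCm38 (250 bases before to 50 bases after the start, 300 bases) were matched for 41 of 48 members. The core motif TGACNNNGC was searched on both strands. It was present for 6 of 41 members (14.6%), Psmb5, Psmb6, Psmc6, Psmd9, Psmd12 and Psme4, against 14% of all 27025 genes with a promoter in the table. The share among the members was thus near that of these 27025 genes in this window. For the motif shares, all genes means these 27025, which are not limited to the 14260 listed genes. Of these 6 genes, Psmb6, Psmc6 and Psme4 rose at ZT12, and Psmb5, Psmd9 and Psmd12 were not called. Of all 48 members 30 rose, where 14.4% of the 14260 listed genes were called higher. Without the 5 libraries Psme4 was the only one of the 6 called, where 14 of 48 members and 8.25% of the listed genes were called higher. A link between motif and rise was not tested. The E-box CACGTG, searched in the same way, was present for 5 of 41 members (12.2%; Psma4, Psmb10, Psmd9, Psme3 and Psme3ip1), against 8.09% of all genes. The D-box TTATGTAA was present for 0 of 41 members, against 1.11% of all genes, and CCAAT for 15 of 41 (36.6%), against 41.1%. The promoters of the 4 members with the first motif nearest the start are shown, Psmb5 (chr14:54617946-54618245, minus strand, not called), Psmd9 (chr5:123227940-123228239, plus strand, not called), Psmb6 (chr11:70525107-70525406, plus strand, rose) and Psme4 (chr11:30771525-30771824, plus strand, rose). Each reads in the direction of the gene, and capitals mark the match.
Psmb5: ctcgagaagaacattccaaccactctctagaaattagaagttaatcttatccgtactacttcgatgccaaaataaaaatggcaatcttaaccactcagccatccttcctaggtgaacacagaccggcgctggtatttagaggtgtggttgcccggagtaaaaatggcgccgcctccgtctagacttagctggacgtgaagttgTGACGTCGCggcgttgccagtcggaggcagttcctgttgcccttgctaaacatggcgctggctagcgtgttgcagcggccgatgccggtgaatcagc
Psmd9: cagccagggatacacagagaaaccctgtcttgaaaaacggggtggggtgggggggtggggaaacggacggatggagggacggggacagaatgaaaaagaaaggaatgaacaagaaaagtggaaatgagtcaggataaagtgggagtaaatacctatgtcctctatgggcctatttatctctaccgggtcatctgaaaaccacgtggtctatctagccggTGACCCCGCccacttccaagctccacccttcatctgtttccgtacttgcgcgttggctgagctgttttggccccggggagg
Psmb6: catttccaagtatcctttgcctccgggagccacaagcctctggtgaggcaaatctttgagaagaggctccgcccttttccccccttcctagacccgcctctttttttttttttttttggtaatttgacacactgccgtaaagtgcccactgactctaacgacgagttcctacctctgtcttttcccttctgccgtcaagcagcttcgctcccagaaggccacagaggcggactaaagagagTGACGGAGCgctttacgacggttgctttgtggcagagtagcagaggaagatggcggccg
Psme4: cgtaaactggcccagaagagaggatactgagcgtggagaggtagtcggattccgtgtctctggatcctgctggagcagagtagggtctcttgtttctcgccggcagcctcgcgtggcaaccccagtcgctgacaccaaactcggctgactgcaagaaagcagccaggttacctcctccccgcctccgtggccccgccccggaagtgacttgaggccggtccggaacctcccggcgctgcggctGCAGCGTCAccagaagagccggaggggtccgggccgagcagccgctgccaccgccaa
The match begins at position -47 in Psmb5, -31 in Psmd9, -9 in Psmb6 and -7 in Psme4, where the start of the gene is 0. In Psme4 the match is on the opposite strand. A match is a description of these letters and shows no binding.

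Over all 4 times, 28 of 48 members were called in limma's F test, where 35.6% of all genes were called, and 19 of 48 without the 5 libraries, where 28.7% were. Of the 28, the highest fitted mean was at ZT0 in 0, ZT6 in 7, ZT12 in 17 and ZT18 in 4. Of all genes called, 30% peaked at ZT0, 22.8% peaked at ZT6, while ZT12 held 22.5% and ZT18 held 24.7%. Without the 5 libraries the 19 called members were highest at ZT6 (6), ZT12 (10) and ZT18 (3), and ZT0 held the highest mean of 1018 of all genes called then, ZT6 of 998, ZT12 of 923 and ZT18 of 1151. The smallest p belonged to Psmf1 (adjusted p = 6.74e-06), whose median normalized counts were 1174.5 (ZT0), 1254 (ZT6), 1344 (ZT12) and 1102 (ZT18). Psma7 followed (adjusted p = 1.31e-05), with medians of 2420, 2674, 2889 and 2612. Psmb2 (adjusted p = 3.54e-05) had medians of 1734, 2002, 2033 and 1922. Psmd4 (adjusted p = 3.61e-04) had medians of 3274, 3132, 3538 and 3290, highest at ZT12. The number series of the ZT6 and ZT18 animals cannot be told apart from time in these orders.

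**Figure D2:**
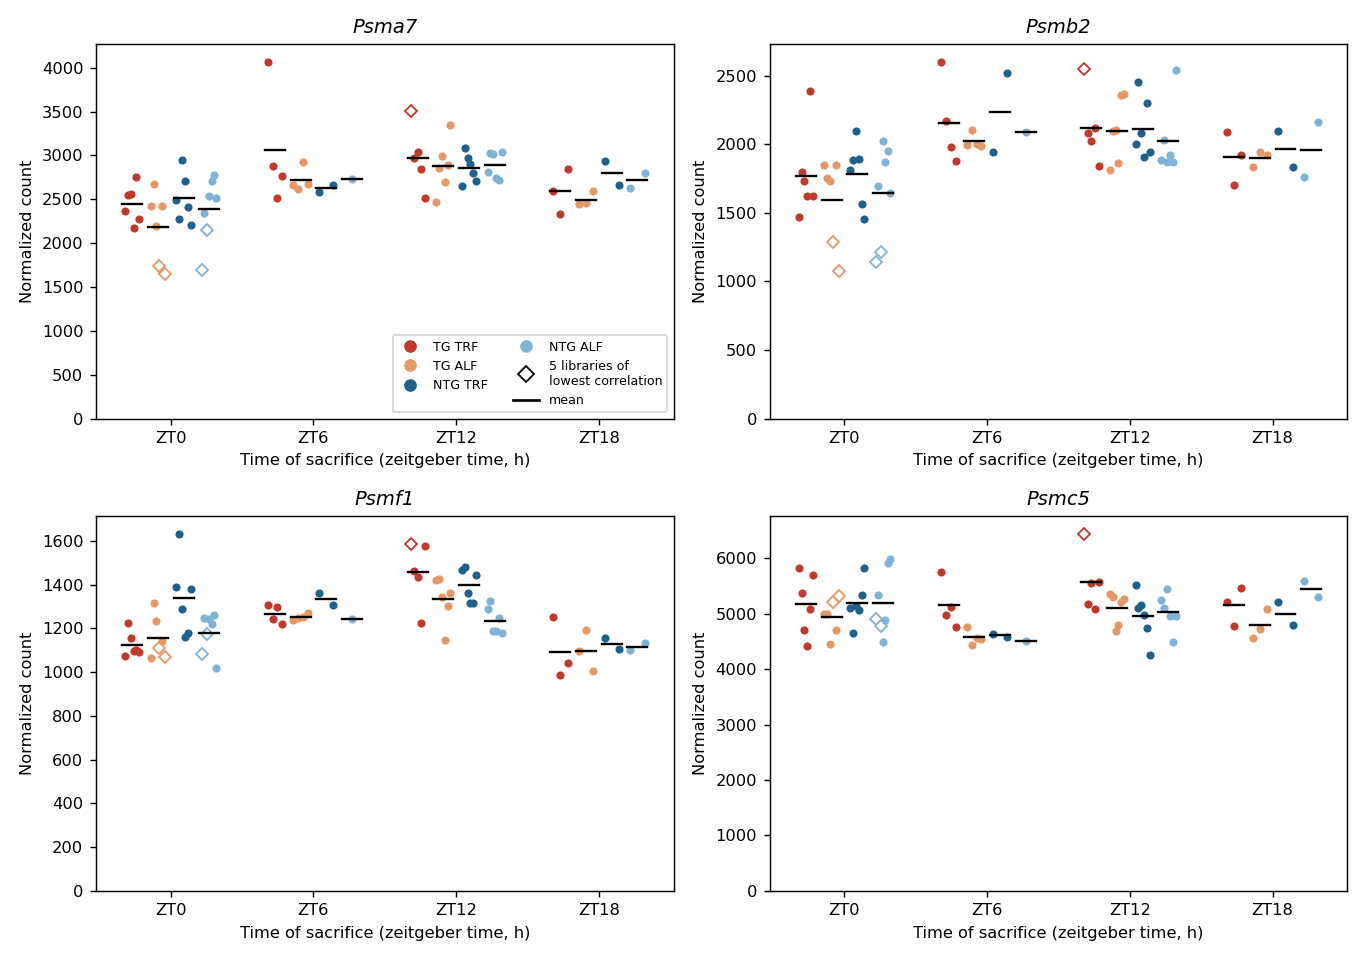
Normalized counts of Psma7, Psmb2, Psmf1 and Psmc5 in each of the 69 animals (vertical axis, from 0) by time of sacrifice, with one colour per group, open diamonds for the 5 libraries that stood apart and bars for group means. The 4 open diamonds at ZT0 are the lowest values of Psma7 and Psmb2 in the plot, Psmf1 has a median of 1102 at ZT18, and the values of Psmc5 overlap at all 4 times.

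At ZT18 against ZT6, 1 of 48 members was called, where 8.04% of all genes were. Psmf1 ran from 986 to 1252 normalized counts at ZT18 (median 1102, n = 10), against 1219 to 1362 at ZT6 (median 1254, n = 11). It fell by 0.20 on the log2 scale (SE 0.05, adjusted p = 0.0111). The median of the members was 0.01. Psmd11, a lid subunit, was next (0.13 ± 0.05, adjusted p = 0.0547) and was called without the 5 libraries (adjusted p = 0.0344; 11.3% of all genes), followed by Psmd10 (0.20 ± 0.07, adjusted p = 0.0712).

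Within single groups few members passed. At ZT12 against ZT0, 1 of 48 was called in TG on TRF (3.55% of all genes), 2 in TG on ALF (2.22%), 0 in NTG on TRF (0.596%) and 2 in NTG on ALF (2.17%). The medians of the members were 0.16, 0.18, 0.07 and 0.18 in this order, and 0.12, 0.10, 0.07 and 0.07 without the 5 libraries. Without them, 1, 1, 0 and 0 members were called, against 2.59%, 0.905%, 1% and 0.912% of all genes. In TG on TRF the called member was Psmf1. Its 5 animals at ZT12 had 1586, 1579, 1463, 1436 and 1223 normalized counts, against 1073 to 1225 in 6 animals at ZT0 (median 1098), and only the lowest ZT12 animal reached into the ZT0 range. The change was 0.37 ± 0.07 (adjusted p = 7.81e-04). Psma7 (0.41 ± 0.10, adjusted p = 0.0158) and Psmb2 (0.42 ± 0.12, adjusted p = 0.0459) were called in TG on ALF, where Psmd4 was the one called without the 5 libraries (0.25 ± 0.06, adjusted p = 0.0260). In NTG on ALF the called members were Psmc3ip (0.80 ± 0.20, adjusted p = 0.0187) and Psmd13 (0.22 ± 0.06, adjusted p = 0.0345). The calls on ALF were lost when any of several libraries was left out alone. In TG on ALF 0 members were called without TG_ALF_0_5, TG_ALF_0_16 or TG_ALF_12_23. In NTG on ALF 0 were called without WT_ALF_0_1, WT_ALF_0_107, WT_ALF_12_22 or WT_ALF_12_322. In NTG on TRF the smallest p belonged to Psme4 (0.23 ± 0.09, adjusted p = 0.346), and 2 members had an unadjusted p under 0.05, where 8.58% of all genes did. Whether the change from ZT0 to ZT12 differed between feedings or genotypes was tested directly, and 0 members and 0% of all genes were called in any of the 4 tests. At an unadjusted p under 0.05 these tests held 0, 2, 2 and 1 members (TRF minus ALF in TG and in NTG, and TG minus NTG on ALF and on TRF), where 2.33%, 2.84%, 2.27% and 4.38% of all genes had one. The smallest p of these belonged to Psmf1, whose change was 0.37 ± 0.07 in TG on TRF and 0.07 ± 0.07 in NTG on TRF, a difference of 0.30 ± 0.10 (unadjusted p = 0.00414, adjusted p = 1).

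Genotype and feeding gave no called member. In TG against NTG on ALF, 0 of 48 were called, where 0.189% of all genes were, and the median of the members was 0.01. At an unadjusted p under 0.05 there was 1, Psmb8 (0.48 ± 0.24, adjusted p = 0.684), where 7.3% of all genes passed this level. Psmb8 ran from 85.4 to 206 normalized counts in TG on ALF (median 155), against 2.49 to 174 in NTG on ALF (median 124.3). Its estimate was 0.13 ± 0.13 once the 5 libraries were left out. All 19 choroid plexus markers had estimates above 0 in this comparison, with a median of 1.67 and 0 called. Next were Psme1 (0.12 ± 0.07) and Psmd11 (-0.06 ± 0.04). In TG against NTG on TRF, 0 of 48 were called, where 0.133% of all genes were, with a median of 0.05 and 5 members at an unadjusted p under 0.05, a level that 6.94% of all genes reached. The 3 of smallest p were Psmd7 (0.09 ± 0.03, adjusted p = 0.591), Psmf1 (-0.10 ± 0.04, adjusted p = 0.697) and Psmd9 (0.14 ± 0.07, adjusted p = 0.709).

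In TRF against ALF in TG, 0 of 48 were called, where 0.540% of all genes were. The estimates of 42 members were above 0, with a median of 0.09, and 14 of 48 had an unadjusted p under 0.05, where 17.1% of all genes did. Psmc1 had the smallest p. It ran from 4450 to 7283 normalized counts in TG on TRF (median 5441), against 3688 to 5974 in TG on ALF (median 4917), and its estimate was 0.15 ± 0.05 (adjusted p = 0.131). Psmb5 (0.23 ± 0.08, adjusted p = 0.143) and Psmc5 (0.11 ± 0.04, adjusted p = 0.148) followed. Of the 5 libraries, 2 were TG on ALF and 1 TG on TRF, and without them the median was 0.03, 6 members had an unadjusted p under 0.05, where 10.4% of all genes did, and 0 were called, where 0.0491% of all genes were. Of the choroid plexus markers, all 19 had estimates below 0, with a median of -1.41 and 0 called, and all 14 myelin markers were below 0, with a median of -0.20 and 1 called. With either level as a covariate, 0 members were called, but the count was 0 without a covariate too. A part of either level in the members' estimates was not tested.

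In TRF against ALF in NTG, 0 of 48 were called, where 0.0281% of all genes were, with a median of 0.05 and 4 members at an unadjusted p under 0.05, a level that 7.47% of all genes reached. Psmf1 had the smallest p, with 1103 to 1631 normalized counts in NTG on TRF (median 1339), against 1019 to 1325 in NTG on ALF (median 1203). The ranges overlapped, and the estimate was 0.15 ± 0.04 (unadjusted p = 0.00130, adjusted p = 0.206). Psmd3 (0.11 ± 0.05) and Psme1 (0.16 ± 0.07) followed. Without the 5 libraries, of which 2 were NTG on ALF, the median of the members was -0.01. The difference between the feeding effects, TG minus NTG, called 0 members and 0% of all genes, with 4 members at an unadjusted p under 0.05, Psmd7, Psmc5, Psmc1 and Psmf1, against 5.22% of all genes. TRF was also set against ALF at ZT0 and at ZT12 within each genotype, and 0 members were called in any of these 4 tests, where 0.00701% of all genes were in TG at ZT12 and 0% in the other 3. The numbers of members at an unadjusted p under 0.05 were 0 and 1 in TG (ZT0 and ZT12), where 8.47% and 3.35% of all genes had one, and 6 and 1 in NTG, where 10.9% and 1.91% of all genes did. The comparisons of one genotype or feeding share animals with the next, so their estimates are not independent.

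**Figure D3:**
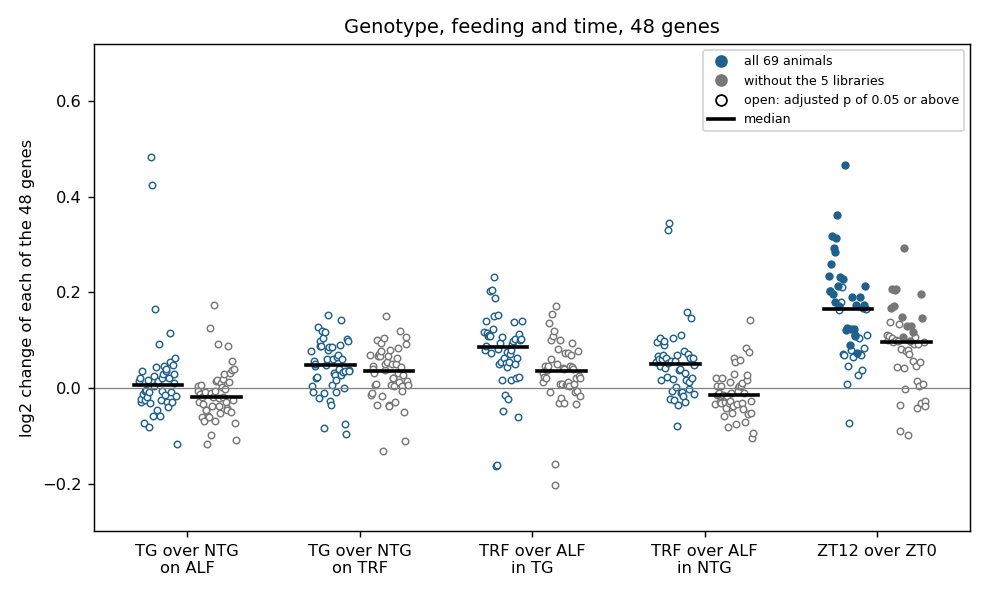
Change of each of the 48 genes (log2, vertical axis) in the 4 comparisons of genotype and feeding and at ZT12 over ZT0, with all animals (blue) and without the 5 libraries that stood apart (grey). Filled points passed an adjusted p of 0.05 and bars are medians: no point is filled in the first 4 comparisons, against 30 blue and 14 grey at ZT12 over ZT0.

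The 5 libraries lay at the ends of the range of core levels. Averaged over the 14 genes of the 20S core, each as its deviation from its own mean on the log2 scale, the 4 ZT0 libraries WT_ALF_0_107, WT_ALF_0_1, TG_ALF_0_16 and TG_ALF_0_5 were lowest, at -0.60, -0.83, -0.61 and -0.59, against a range of -0.31 to 0.58 in the other 64 animals. Over the 17 genes of the 19S particle the same 4 animals lay between -0.19 and -0.04, against -0.17 to 0.23 in the other 64. TG_TRF_12_104 was the highest over the 19S genes, at 0.27, and second over the core, at 0.43. Of 48 members, 39 had their lowest ZT0 value in one of these libraries, and the ranges at ZT12 and ZT0 overlapped for all 48. Neither count was made over all genes, so neither can be read as particular to the members.

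**Figure D4:**
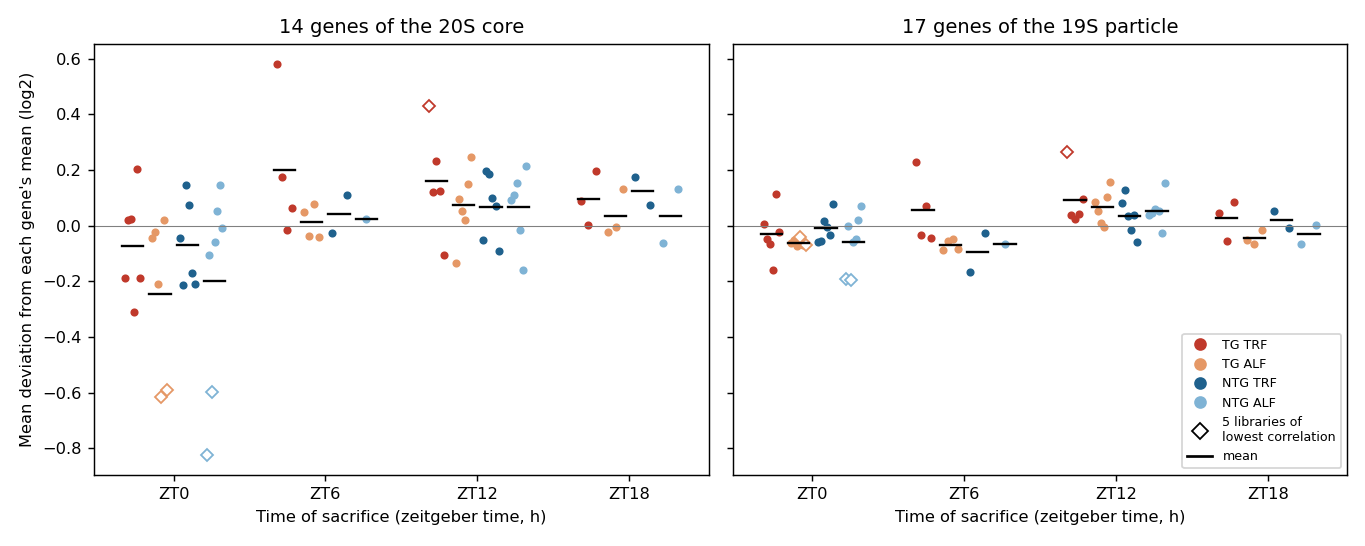
Mean deviation of the 14 genes of the 20S core (left) and the 17 genes of the 19S particle (right) from each gene's own mean (log2, vertical axis) in each of the 69 animals, by time of sacrifice and group, with open diamonds for the 5 libraries that stood apart and bars for group means. The 4 diamonds at ZT0 lie at -0.83 to -0.59 for the core, below all other animals, and at -0.19 to -0.04 for the 19S particle.

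A trend of level with exon length moved with these values. In each library the slope of every gene's deviation on its exon length was computed over the 13891 genes with a length. It was 0.19 to 0.33 per doubling in the 4 ZT0 libraries that stood apart and at most 0.09 in the other 64. A higher slope means that genes with few exon bases were lower in that library. It was -0.19 in TG_TRF_12_104 and -0.18 in TG_TRF_6_307, which had the highest mean over the core (0.58). With group and time removed, the level of each of the 14 core genes was correlated with the slope across the 69 animals, at r between -0.91 and -0.66, and between -0.88 and -0.34 without the 5 libraries. In the 19S genes r ran from -0.81 to 0.76, with Psmd1 at the upper end. The genes of one animal share its library, depth and dissection, and r is a description. Of 48 members, 20 lie among the 2779 genes of shortest exons, of at most 2572 bases. Those 2779 genes had a median change of 0.10 at ZT12 against ZT0, and the 20 members 0.18. Leaving out the 5 libraries, these medians were 0.02 and 0.09. In the other 4 groups of about equal size, in order of rising exon length, the 17, 5, 5 and 1 members had medians of 0.17, 0.18, 0.10 and 0.17, where all genes of the groups had 0.04, -0.00, -0.03 and -0.07. Leaving out the 5 libraries, the members' medians were 0.10, 0.10, 0.09 and 0.20, where all genes had 0.01, -0.00, -0.00 and -0.01. No test was made of these medians. With the slope as a covariate, a choice made after seeing the data, 20 of 48 members were called at ZT12 against ZT0 with all animals, where 21.3% of all genes were called in either direction. Without the 5 libraries 20 of 48 were called as well, where 21.5% of all genes were. All of the members called were higher in both cases.

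**Figure D5:**
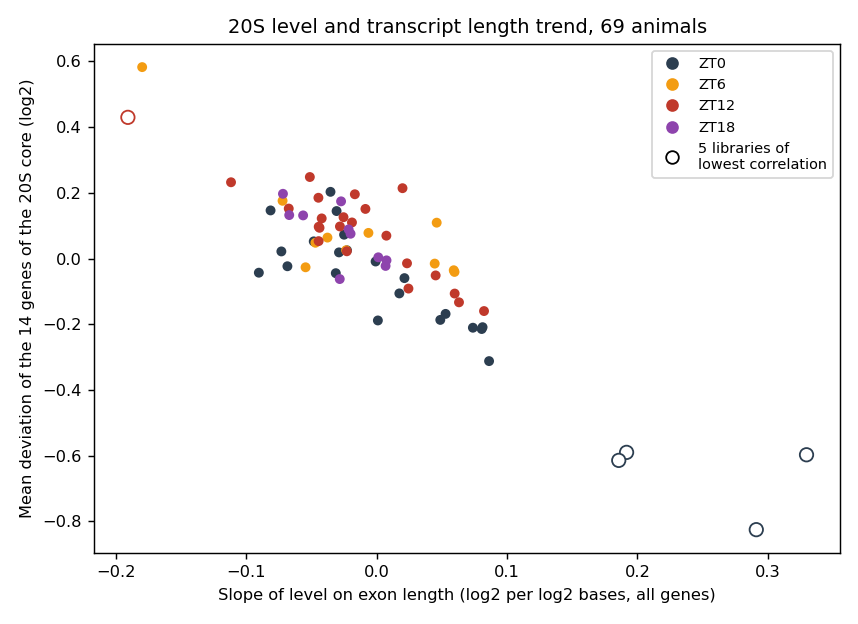
Mean deviation of the 14 genes of the 20S core (log2, vertical axis) against the slope of all genes' levels on exon length (log2 per doubling, horizontal axis) in 69 animals, coloured by time, with open circles for the 5 libraries that stood apart. Animals with a higher slope have lower core levels, and 4 of the open circles lie at slopes of 0.19 to 0.33, beyond all other animals.

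Members of the core varied together across animals. With the means of the 16 groups by time removed, the median correlation between pairs of core genes was 0.83, between pairs of 19S genes 0.28, between core and 19S genes 0.40, and between members and all other genes -0.00. With the 5 libraries left out these were 0.72, 0.29, 0.31 and -0.01. The core genes were also correlated with the slope on exon length (r between -0.91 and -0.66). Pairs among other genes, of like exon length or not, were not computed. Not all members joined, and the lowest median r with the other members was that of Psmd1 (-0.47), followed by Psmd2 (-0.17) and Psme4 (-0.14). The immune subunits Psmb8 and Psmb9 had an r of 0.82 with each other, but 0.32 without the 5 libraries. Psmb8 had an r of 0.47 with the mean of 17 interferon response genes, and 0.69 without the 5 libraries, the highest of the 48 members in both cases.

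Genes that work with the proteasome but lie outside the symbol rule gave a mixed picture at ZT12 against ZT0. Of 13 listed partners, 4 rose and 1 fell, where 14.4% of all genes were called higher and 13.6% lower. Zfand5, a proteasome activator, rose by 0.17 ± 0.03 (adjusted p = 8.08e-06), and the ubiquitin receptor Adrm1 by 0.25 ± 0.06 (adjusted p = 8.13e-04). Both were also called without the 5 libraries. Txnl1 and Usp14, which bind the 19S particle, each rose by 0.12, and the ubiquitin ligase Ubr4 fell by 0.30 (SE 0.07, adjusted p = 0.00193), and none of these 3 was called without the 5 libraries. The core chaperone Pomp was estimated at 0.14 ± 0.06 (adjusted p = 0.0611). Of the 7 genes of NRF1 and its processing, 0 rose and 1, Sel1l, fell by 0.23 (SE 0.04, adjusted p = 2.44e-05). Nfe2l1 itself was estimated at -0.09 ± 0.04 (adjusted p = 0.114). Of 13 ubiquitin and shuttle genes, 1 rose and 3 fell. Some markers of other cells were also called in this comparison, where 27.9% of all genes were. All 19 choroid plexus markers were below 0, with a median of -0.57 and 0 called, and 5 of 8 endothelial markers, 3 of 13 microglial markers and 3 of 14 myelin markers fell, and 2, 0 and 1 rose. Their part in the changes of the members was not tested beyond the myelin and choroid plexus levels as covariates, with which 27 and 29 members rose and 0 fell at ZT12 against ZT0, where 28.9% and 28.1% of all genes were called in either direction.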

How the data were processed

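Hippocampus from one hemibrain per mouse was sequenced as poly-A selected RNA in paired reads of 150 bases, and reads were trimmed with Trimmomatic, per the labels' protocols. HISAT2, featureCounts, DESeq2 and GRCm38 are named, without versions, in the submitters' processing notes. Annotation and strand setting are not given in the sources used here. What the authors deposited is a signal of normalized counts: each library's values are whole multiples of one step (tolerance 0.01 of a step), and the step gave the reads per library.

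The 70 libraries were taken as 69 animals, with the pair 232 and 232R averaged. Tests ran on log2(normalized count + 1), which understates fold changes of low genes, in R 4.3.3 using limma 3.58.1, whose trended and robust variance options were on. They were 2-sided, p was adjusted by Benjamini and Hochberg's method across all 14260 genes, and 0.05 was the threshold. One model held 4 group means and time terms, and a second held 16 means, for comparisons within a group or time. The test was checked on simulated data. Exon lengths are union exon bases from GENCODE M21 (13891 genes), and promoters are from RefSeq. The members and gene lists were chosen with earlier results of these data known. Members named with values are up to 10 of smallest p among those called in a comparison, or the 3 of smallest p where fewer than 3 were called, with all immune subunits, activators and the inhibitor and the 3 highest and lowest per kilobase. Other members named, and the last 3 motifs, were chosen after their values were seen. Alternatives changed the pseudocount, filter, scaling, use of 232 and 232R, times, covariates, weights, variance model and animals left out.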

Additional observations from a re-analysis of the deposited data

Results flagged for a closer look

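An animal far from the others was looked for in 7 measures, each within the 10 groups by time that held 4 to 10 animals and over the 10 animals at ZT18 in one set, where single groups held 2 or 3. Of these 77 sets, 3 held one, where chance gives about 1 in 20. For the mean of the 19S members in TG on TRF at ZT12, TG_TRF_12_104 lay at 0.265 on the log2 scale, and the next of the 5 animals at 0.0944. For Psmb2 in TG on ALF at ZT6, TG_ALF_6_310 lay 0.147 above the gene's mean on the log2 scale, and the next of the 4 animals at 0.0748. For Psmb2 in NTG on ALF at ZT12, WT_ALF_12_322 lay at 0.419, and the next of the 6 animals at 0.0967.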

How the results depend on the processing

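At ZT12 against ZT0 the 30 members called became 14 without the 5 libraries of lowest correlation, and 27 to 33 under the other planned settings, all higher. With the slope on exon length as a covariate, a setting chosen after seeing the data, the count was 20, and 20 without the 5 libraries as well. Leaving out each animal in turn gave 27 to 31, and 24 to 32 for the F test over 4 times. At ZT18 against ZT6 the 1 call became 2 with genes of a mean of at least 200, with libraries rescaled to one total, with the number series as a covariate, without the 5 libraries and with no trend or robust variances, 3 with array weights and with the slope as a covariate, and 4 without the 5 libraries with the slope. It was 1 to 3 with animals left out, 3 without TG_ALF_18_303 or TG_TRF_6_307. In NTG on ALF the 2 calls at ZT12 against ZT0 became 1 with the filter of 200, 4 with the number series, 0 with array weights, 0 without the 5 libraries and 1 without them with the slope. Leaving out single animals gave 0 to 4, with 0 without WT_ALF_0_1, WT_ALF_0_107, WT_ALF_12_22 or WT_ALF_12_322. In TG on ALF the 2 became 1 with ZT0 and ZT12 animals only, without the 5 libraries, with voom weights and with no trend or robust variances, and 0 to 3 with animals left out, 0 without TG_ALF_0_5, TG_ALF_0_16 or TG_ALF_12_23. In TG on TRF the 1 became 5 with array weights and 2 with the slope, with or without the 5 libraries, and stayed at 1 with each animal left out. In TRF against ALF in NTG at ZT0 the 0 became 1 with the number series. The other comparisons of genotype, feeding and their interactions had 0 calls in every setting run. The median correlation of members was 0.26 without the 5 libraries. Of 1181 values of named members under these settings, 1141 kept their direction and side of the threshold, 20 passed it, 19 lost it and 1 reversed, Psmd11 in TG against NTG on ALF, at 0.00301 with ZT0 and ZT12 animals only. The causes were not tested. No paired analysis was possible because animal numbers are not shared between groups. With 1 to 7 animals per group and time, the within-group tests have limited precision.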
